A study of Saccharomyces cerevisiae with 20 samples.

Results

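The cells described here lacked Xbp1 and were compared at 2 points of starvation, stationary phase and diauxic shift. The set was chosen by label and holds 4 of the 20 RNA-seq libraries of the series, 2 from each phase. All strains were Saccharomyces cerevisiae W303 RAD5+, a laboratory strain of budding yeast, grown in YPD, a rich glucose medium, at 30 °C. In Δxbp1 the XBP1 gene was replaced by an antibiotic resistance marker. Diauxic shift cells were collected a short time after glucose could no longer be detected, and stationary phase cells after 3 days of culture. The wild type parent (2 libraries at each phase) and Δisw2, which lacks the ATPase of a chromatin remodeller (2 at each phase), served for comparison; all groups share the W303 RAD5+ background and the medium. Whole cultures were sequenced, not purified quiescent cells, so fewer cells of a kind and less RNA per cell cannot be told apart.

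When glucose runs out, budding yeast first respires the ethanol it has made, which is the diauxic shift, and then leaves the cell cycle in stationary phase, where part of the culture becomes quiescent. Xbp1 is a DNA-binding repressor whose DNA-binding domain resembles those of the cell cycle factors Swi4 and Mbp1. It is induced by stress and starvation, binds sites with a CTCGA core, and can bring the histone deacetylase complex Rpd3L to promoters. Comparing the phases within Δxbp1, and then comparing that change with the one in wild type, shows how the starvation programme ran in its absence.

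The 2 libraries of each group are called A and B, since the labels do not tie the stationary phase columns to a replicate number. Stationary phase B of Δxbp1 carries a different strain number in its column name from the other 3 Δxbp1 libraries. The same holds for stationary phase B of Δisw2 beside the other Δisw2 libraries. Reads assigned to genes came to 20963633 and 27625009 at diauxic shift and to 9994448 and 2543155 at stationary phase (A and B), so stationary phase B was the shallowest. Between A and B, 1.81% of 5643 genes differed at least 2-fold at diauxic shift and 1.22% at stationary phase. In wild type these shares were 4.38% and 0.815%, so the wild type diauxic shift pair was the loosest. XBP1 itself had 2, 2, 0 and 1 reads in the Δxbp1 libraries (diauxic shift A and B, stationary phase A and B), against 27502, 26679, 23829 and 3606 in wild type. Taking 3 reads per library as the floor, the XBP1 level of wild type exceeded that of Δxbp1 by at least 5377-fold at diauxic shift, and by 741-fold or more at stationary phase. The other deletion targets of the series were all read: SDS3 rose by 0.84 and ISW2 by 0.91 on the log2 scale, and TUP1 (-0.50) missed the 1.5-fold limit. Of 7 genes specific to MATa cells 2 were lower at stationary phase, AGA2 and ASG7, and 0 higher, and their summed level lay at 8131 and 9115 normalized counts at diauxic shift and 7610 and 6850 at stationary phase. Of 4 genes specific to MATα cells MF(ALPHA)2 was higher (from 9.29 and 5.75 to 26.7 and 36.7) and STE3 lower, and their sum went from 1466 and 1447 to 1790 and 1681, most of it SAG1 (1147 to 1600). Over all genes tested 17.6% were higher and 20.6% lower by the same rule, given below. The part of these mating type genes in the results was not tested.

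In Δxbp1, 1085 of 6164 genes tested were higher at stationary phase (17.6%) and 1270 were lower (20.6%), called at an adjusted p under 0.05 in limma's moderated test on log2(normalized count + 1) and a fold change of 1.5 or more. The median change of all genes was -0.03, and 473 genes rose and 644 fell by 2-fold or more. In wild type, 790 of 6290 genes were higher (12.6%) and 832 lower (13.2%). Scaling by total reads in place of the median of ratios moved the median of all genes from -0.03 to 0.26 and moved the split from 46.1% to 72.9% of calls being higher; changes below are relative to the median of ratios scale. There were fewer calls with 1 stationary phase library, 566 higher and 726 lower without stationary phase B, and 691 and 810 without stationary phase A.

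The 12 largest rises included genes of the spindle, of fork repair and of the nucleolus. CIN8, a kinesin motor that separates the spindle poles, was at 185 and 284 normalized counts at diauxic shift and 4883 and 8633 at stationary phase. This was a 28.2-fold rise (log2 4.82 ± 0.27 SE, adjusted p = 2.23e-06, limma). Both stationary phase libraries were above both diauxic shift libraries, as the choice of the 12 required. Of all 6164 genes tested, 2246 were separated in this direction and 2313 in the other. RTT107, a scaffold for repair at stalled replication forks, went from 286 and 369 to 6634 and 9612, a 24.5-fold rise. SLK19, a kinetochore and spindle midzone protein, went from 475 and 780 to 6951 and 9086. All 3 rose in wild type too, by 2.48, 4.80 and 2.69 on the log2 scale, and none of the 3 passed the test of the difference between strains.

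PZF1 encodes the transcription factor TFIIIA, which serves the 5S ribosomal RNA genes, and rose from 125 and 138 to 1552 and 1975 normalized counts. SRP40, a nucleolar protein, rose from 289 and 352 to 3321 and 4667, and NOP16, needed to build the large ribosomal subunit, from 637 and 788 to 6348 and 7809. None of these groups overlapped, as the choice of the 12 required. RPI1, linked to the Ras pathway and the cell wall, stood highest among the 12 at stationary phase with 13187 and 14166, up from 918 and 1333. SNT309, a subunit of a spliceosome-associated complex, rose by 3.23 on the log2 scale. The remaining rises among the 12 were FRE5, described with iron uptake, YOR387C (4.77), YOR333C (3.69) and CSS1 (3.71). YOR333C is not in the RefSeq annotation, and 22.2% of the 37-base stretches of CSS1, the length of a read, also occur elsewhere in the genome.

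**Figure D1:**
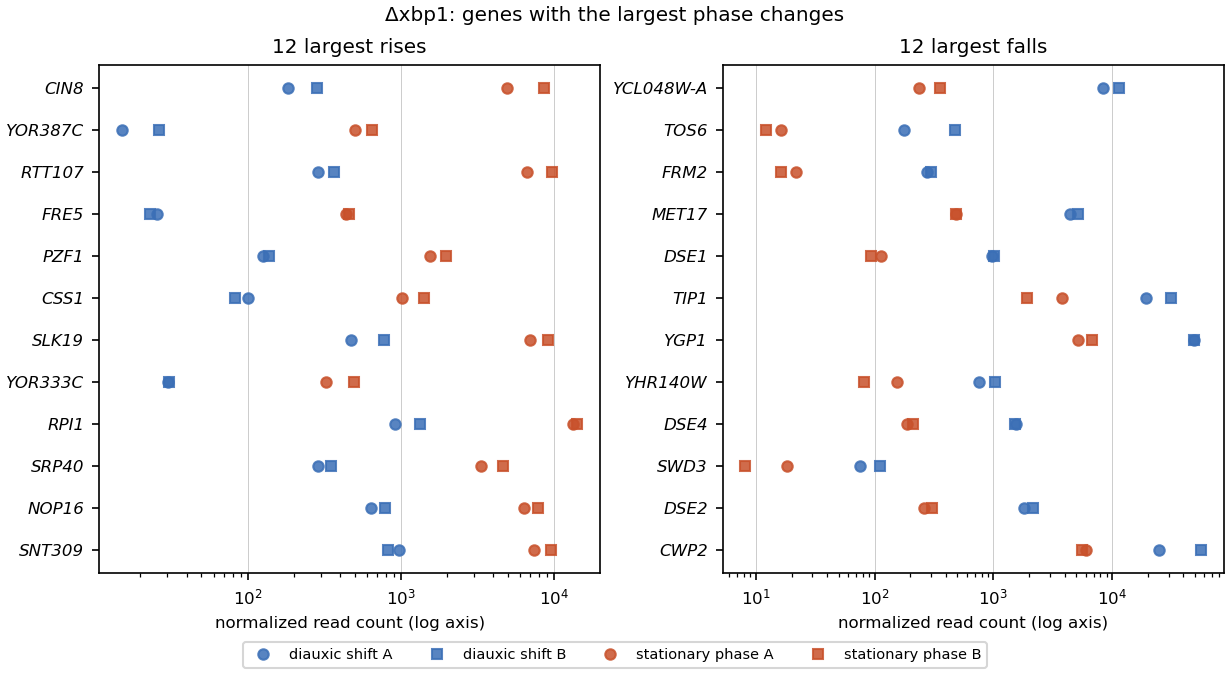
Normalized read counts (log axis) of the 12 genes with the largest rises and the 12 with the largest falls in Δxbp1, 1 point per library. Circles are library A, squares library B; stationary phase points lie to the right of both diauxic shift points for every rise and to the left for every fall, as the choice of these genes required.

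The 12 largest falls included genes of the cell wall and of daughter cell separation. YCL048W-A, a short reading frame of unknown role on chromosome III (41488 to 41727, RefSeq R64), fell from 8424 and 11411 normalized counts at diauxic shift to 237 and 355 at stationary phase, a 33.7-fold fall (log2 -5.07 ± 0.22 SE, adjusted p = 9.43e-07, limma). It fell in wild type by 1.75 and in Δisw2 by 2.25 on the log2 scale, and the difference between Δxbp1 and wild type was not called. DSE1, DSE2 and DSE4 encode daughter cell proteins, with DSE2 and DSE4 acting on the septum wall. DSE1 went from 974 and 1020 to 114 and 93.8, DSE4 from 1556 and 1534 to 187 and 212, and DSE2 from 1821 and 2158 to 261 and 306. Their falls in wild type were of the same order (-3.38, -3.07 and -2.78).

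TIP1 and CWP2 are mannoproteins of the cell wall, and TOS6 is a predicted wall protein. TIP1 fell from 19303 and 31654 to 3789 and 1913, and TOS6 from 177 and 474 to 16.2 and 12.2. CWP2 fell from 24905 and 56199 to 6065 and 5622, by 2.68 on the log2 scale. In wild type CWP2 changed by 0.41 (adjusted p = 0.567) and in Δisw2 by -0.58 (adjusted p = 0.169, limma), neither of which passed the test; the difference between Δxbp1 and wild type was not called. YGP1, a secreted glycoprotein of starved cells, was among the most abundant transcripts at diauxic shift (49037 and 48710) and stood at 5146 and 6781 at stationary phase. MET17, an enzyme of homocysteine synthesis, fell from 4474 and 5180 to 483 and 481, FRM2, a nitroreductase-like protein, from 275 and 297 to 22.0 and 16.3, and SWD3, a subunit of the COMPASS histone methyltransferase, from 75.5 and 112 to 18.1 and 8.16. In the shallow stationary phase B the counts of SWD3, TOS6 and FRM2 rested on few reads, so the sizes of their falls are uncertain. YHR140W (-2.97) completed the 12.

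Gene lists are read below against the 17.6% of all genes called higher and the 20.6% called lower, and a list near these shares does not stand apart. Ribosomal protein genes fell together. Of 137 measured, 116 were lower at stationary phase and 2 were higher, with a median change of -1.20 against -0.03 over all genes. Their share of all reads was 1.09% and 1.51% at diauxic shift (A and B) and 0.782% in both stationary phase libraries. Both stationary phase libraries were below both diauxic shift libraries, and below all 4 wild type libraries (1.16% and 1.67% at diauxic shift, 1.75% and 1.47% at stationary phase). In wild type 13 of these genes rose and 1 fell, with a median of 0.03, and in Δisw2 the median was -0.14.

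RPP2A, an acidic protein of the ribosomal stalk, fell from 644 and 1080 normalized counts to 245 and 184 (log2 -1.97 ± 0.26 SE, adjusted p = 2.78e-04, limma). RPS18A fell from 1203 and 1633 to 412 and 416, and RPS19A from 421 and 555 to 145 and 135; both encode small subunit proteins. The members that rose were RPS30B (1.00) and RPL15B (0.64). Many ribosomal proteins have near-identical gene pairs between which reads can be split, for example RPL41B, where 78.6% of 37-base stretches occur elsewhere. Among the 40 ribosomal protein genes with no shared 37-base stretch, 36 were lower and 0 higher, with a median of -1.32 against -0.13 in wild type. Leaving out 1 library at a time gave medians from -1.44 to -0.86 and between 84 and 124 lower genes. The difference between the strains' changes had a median of -1.23 over the 137 genes and was below 0 for 135 of them, against 3119 of 6347 over all genes. It passed the test for 4 of the 137, beside 0.268% of all genes, and for 104 at an unadjusted p. That count of 4 ran from 0 to 99 as 1 library was left out, and was highest without wild type diauxic shift B.

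**Figure D2:**
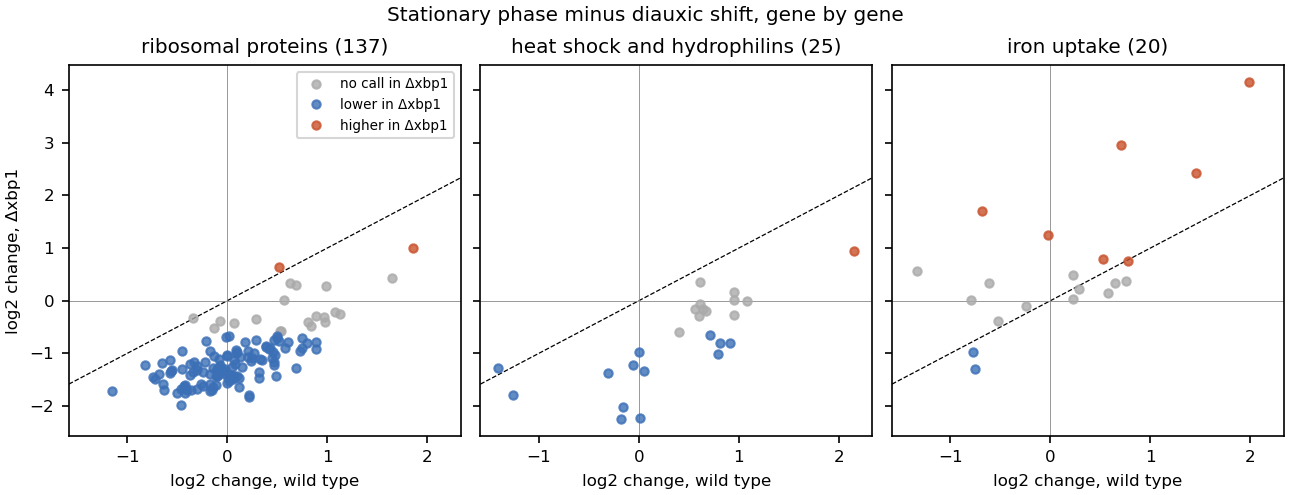
Log2 change from diauxic shift to stationary phase in Δxbp1 (vertical) against wild type (horizontal) for each member of 3 gene lists; the dashed line marks equal change. Ribosomal protein genes lie below the line for nearly every member (median difference -1.23), and heat shock genes likewise (-1.06). Among the iron uptake genes FRE5, FET3, FIT3 and SIT1 lie well above it, and of the 20 only FET3 and SIT1 passed the test of the difference. The median difference of the 20 was 0.21, with 8 below 0 and 12 above.

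Other parts of the translation machinery moved in both directions. Of 98 ribosome biogenesis genes, which assemble ribosomes in the nucleolus, 27 rose and 7 fell (median 0.07). In wild type 12 rose and 14 fell (median -0.03), and in Δisw2 51 rose and 2 fell (median 0.66). After NOP16 the largest rises in Δxbp1 were RRP14 (2.88), NOP8 (2.59) and ENP2 (1.90), and in wild type these 3 rose by 2.31, 1.87 and 1.71. Leaving out 1 library at a time gave list medians from -0.16 (without diauxic shift A) to 0.36 (without diauxic shift B), with 11 to 36 members higher and 1 to 21 lower. Of 15 genes for RNA polymerase I and its factors, which make the large ribosomal RNAs, 0 rose and 5 fell (0 and 6 at an unadjusted p; 2 fell without stationary phase B or with total read scaling), led by RPA12 (-2.91) and RPA14 (-1.47). RPA12 averaged 47.1 normalized counts and stood at 20.1 and 4.08 at stationary phase. The latter is 1 read, below the floor, so the size of its fall is uncertain. Of 27 cytosolic translation factors 5 rose and 8 fell (median -0.14, and 0.15 with total read scaling), with the eIF5A gene HYP2 falling from 11213 and 15636 to 4187 and 4525 and the scaffold eIF4G genes TIF4631 (1.00) and TIF4632 (0.88) rising. Of 70 mitochondrial ribosomal protein genes 13 were higher and 1 lower (median 0.21), and the share higher, 18.6%, was close to the 17.6% of all genes. The largest rise was in MRPL33, which rose from 933 and 769 to 2349 and 3652.

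Genes of respiration were mostly lower. In the tricarboxylic acid cycle 11 of 15 genes fell and 0 rose (0 also at an unadjusted p), with a median of -1.13, and in oxidative phosphorylation 28 of 34 fell and 0 rose (0 also at an unadjusted p), with a median of -1.05. IDH1 and IDH2, the subunits of the cycle's isocitrate dehydrogenase, fell alongside each other: IDH1 from 14620 and 14663 to 3965 and 3721, IDH2 from 14679 and 15061 to 3998 and 3864. NDE1, which passes cytosolic NADH to the respiratory chain, fell by 1.41, and the ATP synthase gene ATP15 by 1.41. In wild type the medians of these lists were -0.75 and -0.74, with 7 and 16 members lower, so falls occurred in both strains. Without stationary phase A, 14 oxidative phosphorylation genes were lower.

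Glycolysis and gluconeogenesis had other patterns. Of 17 glycolytic genes 3 fell and 0 rose (6 and 0 at an unadjusted p; 5 and 0 with edgeR's quasi-likelihood test), with a median of -0.54 against 0.40 in wild type. The share lower, 17.6%, was below the 20.6% of all genes. The difference from wild type passed the test for 0 of the 17, and was negative for 5 at an unadjusted p, beside 488 of 6347 genes. Leaving out 1 library gave 9 lower genes and a median of -0.88 (without diauxic shift A), and 1 or 2 lower genes otherwise, with a median of -0.25 without diauxic shift B and with total read scaling. PGK1, phosphoglycerate kinase, went from 23415 and 44011 to 8848 and 12521, and GLK1, glucokinase, from 37750 and 43405 to 8986 and 9853. The TDH3 call (-1.26) was lost under 8 of the alternatives, and 35.8% of its 37-base stretches occur elsewhere. Among 19 genes of gluconeogenesis and the glyoxylate cycle, which let cells live on ethanol and acetate, 4 rose and 5 fell in Δxbp1, with a median of 0.01, against 0 higher and 10 lower in wild type, with a median of -0.93. The Δxbp1 median was -0.33 without diauxic shift A and 0.23 without stationary phase B, and 1 gene rose without stationary phase A. ICL1, the isocitrate lyase that opens the glyoxylate cycle, rose by 1.11, as did the regulators SIP4 (0.92), ADR1 (0.74) and CAT8 (0.64). PCK1 (-1.98) and FBP1 (-1.95), the committed gluconeogenic enzymes, fell, and in wild type they fell by 1.73 and 2.50. Of 21 genes of fatty acid oxidation and the peroxisome 3 rose and 3 fell (median -0.02, and 0.27 with total read scaling).

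**Figure D3:**
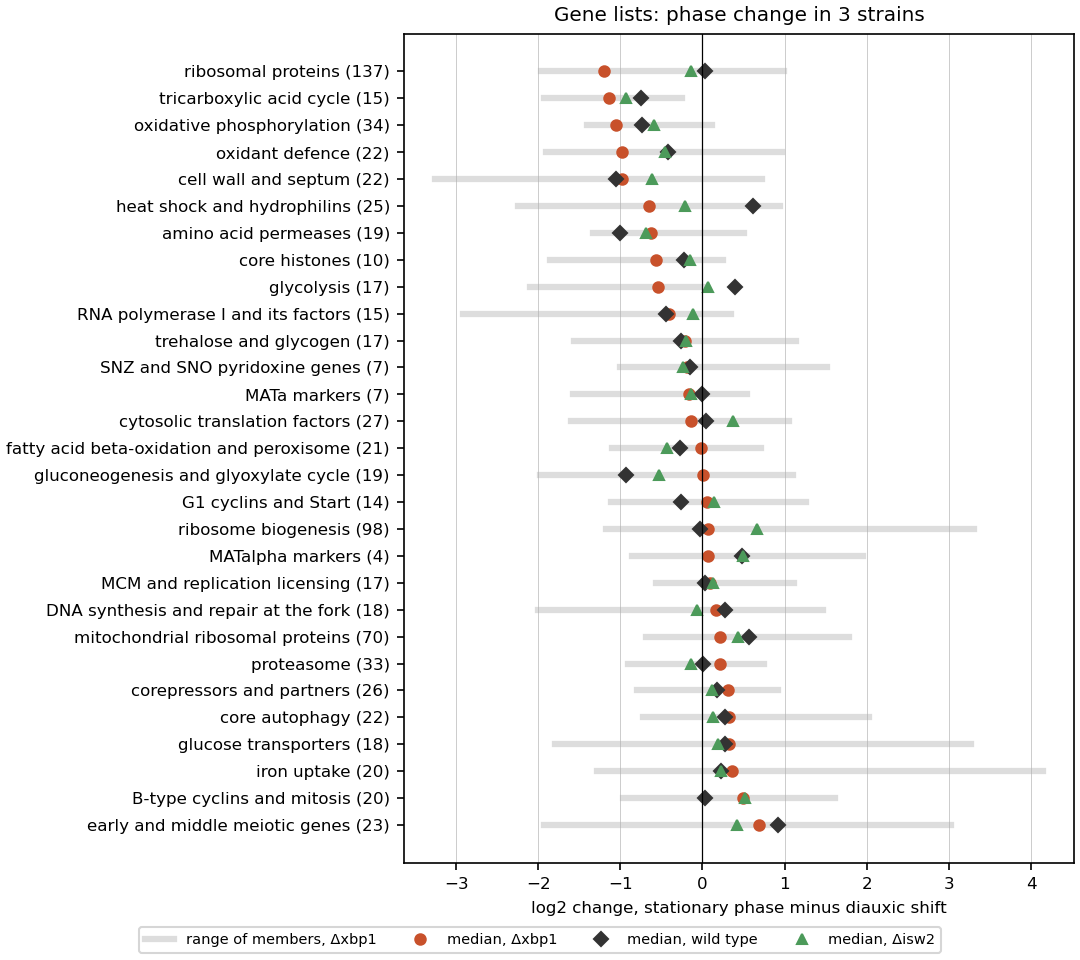
Median log2 change from diauxic shift to stationary phase for each gene list (number of genes tested in parentheses) in Δxbp1, wild type and Δisw2; grey bars span the members in Δxbp1. The medians of ribosomal proteins (-1.20 against 0.03 in wild type) and heat shock genes (-0.65 against 0.61) lie apart from wild type. Gene by gene, the difference passed the test for 4 of 137 ribosomal protein genes and 0 of 25 heat shock genes.

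Most calls among heat shock and oxidant defence genes were falls. Of 25 heat shock and hydrophilin genes, which encode chaperones and small protective proteins, 13 fell and 1 rose, with a median of -0.65, whereas in wild type 2 fell and 3 rose, with a median of 0.61. With stationary phase A or B left out 7 were lower, and with total read scaling 8. In Δisw2 6 fell and 2 rose, with a median of -0.21. The difference between the changes of Δxbp1 and wild type passed the test for 0 of the 25. Over all genes 0.268% passed in the negative direction. At an unadjusted p it was negative for 15 of the 25, beside 488 of 6347 genes. HSP30, a membrane stress protein, stood at 101684 and 81704 normalized counts at diauxic shift and 15550 and 23782 at stationary phase, and its wild type change was -0.18 (adjusted p = 0.789, limma). SSA1, a cytosolic Hsp70, fell by 2.22, and HSP12, HSP26 and HSP104 by 1.22, 1.01 and 0.65; SSA4, an inducible Hsp70, rose by 0.94. The reads of SSA1 and SSA2 cannot be fully separated, since over 61% of their 37-base stretches are shared. The list took 6.11% and 5.86% of reads at diauxic shift and 4.08% and 4.70% at stationary phase in Δxbp1, and 5.84%, 5.90%, 8.42% and 8.84% in wild type in the same order. Of 22 oxidant defence genes 13 fell and 1 rose (median -0.98; 6 fell without stationary phase A): the peroxiredoxin gene TSA2 went from 5715 and 5005 to 1170 and 1754 and the superoxide dismutase genes SOD1 and SOD2 fell by 1.22 and 1.16, while the catalase gene CTT1 rose by 0.97. Of 17 trehalose and glycogen genes 3 rose and 5 fell (median -0.21, and 0.08 with total read scaling), with TSL1 of trehalose synthesis at -1.56 and GAC1, a regulator of glycogen synthase, at 1.13.

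Iron uptake genes were among those that rose most. Of 20, 7 rose and 2 fell (median 0.36), and in wild type 4 rose and 3 fell (median 0.22). FRE5, a putative ferric reductase, went from 25.5 and 23.0 normalized counts to 438 and 457, a 17.8-fold rise (log2 4.15 ± 0.26 SE, adjusted p = 3.44e-06, limma). FET3, the multicopper oxidase of high-affinity iron uptake, went from 246 and 444 to 2619 and 2501. FIT3, a wall mannoprotein that retains siderophore iron, went from 7872 and 4727 to 33696 and 31644, and SIT1, a siderophore transporter, from 566 and 750 to 2206 and 2069. In wild type FRE5 and FIT3 rose as well, by 1.99 and 1.45 on the log2 scale, and neither passed the test of the difference between strains. In Δxbp1 the regulator AFT1 rose by 1.24, and FTR1, the permease partner of Fet3, by 0.80. The list took 0.278% and 0.238% of reads at diauxic shift and 0.706% and 0.628% at stationary phase, against 0.223%, 0.176%, 0.214% and 0.200% in wild type. The Δxbp1 stationary phase libraries were the highest of these 8. FIT3 was by far the most abundant of the members with counts given here, so it weighs heavily in this share. The members that fell were ISU2 (-1.29), of iron-sulphur cluster assembly, and FRE1 (-0.97), a surface ferric reductase.

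**Figure D4:**
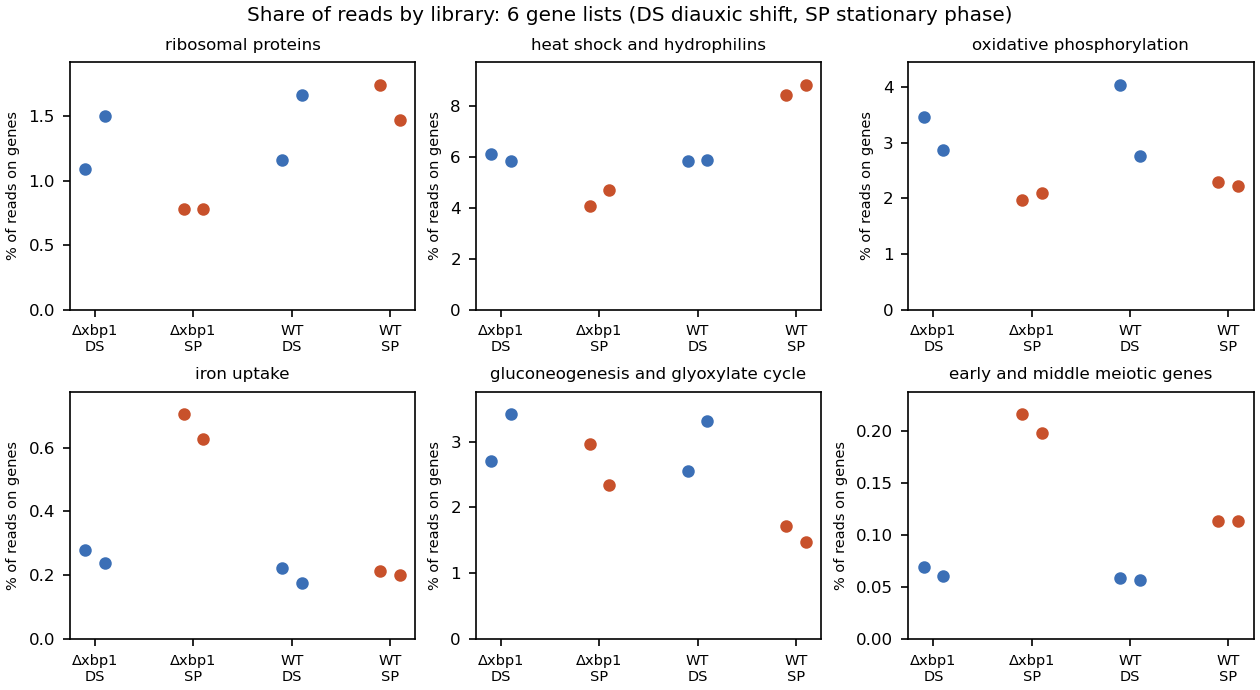
Share of all gene reads (percent) taken by 6 gene lists in each of 8 libraries, 2 per group (DS, diauxic shift; SP, stationary phase; WT, wild type). Ribosomal protein reads were 0.782% in both of the Δxbp1 stationary phase libraries, lower than in the other 6. Iron uptake reads (0.706% and 0.628%) and meiotic gene reads (0.216% and 0.198%) were higher there than in the other 6. IME1 was by far the most abundant meiotic gene with counts given in the text, so it weighs heavily in that share. The median change of the meiotic list was 0.69 in Δxbp1 and 0.92 in wild type.

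Cell cycle genes changed member by member. Of 14 genes of G1 and Start, the commitment point of the cycle, 5 rose and 1 fell. WHI5, the inhibitor of Start, went from 192 and 290 normalized counts to 506 and 628. The transcription factor subunits SWI6, MBP1 and SWI4 rose by 1.06, 0.91 and 0.71, and the Cdk inhibitor SIC1 by 0.61, whereas the G1 cyclin CLN1 fell by 1.12 (from 297 and 379 to 166 and 143). Of 20 genes of the B-type cyclins and mitosis 7 rose and 1 fell (median 0.49), with 3 rises without stationary phase A, 2 without stationary phase B and 13 with total read scaling: BUD4 (1.62), a septin-associated protein, MYO1 (1.41), the myosin of the contractile ring, and ASE1 (1.24), a spindle midzone protein, led, and SPO12 fell by 0.97. In wild type 7 of the 20 rose and 0 fell, and in Δisw2 9 rose and 1 fell. BUD4, MYO1 and ASE1 rose by 1.88, 1.81 and 1.05 in wild type and by 2.59, 2.32 and 1.70 in Δisw2. Of the 14 genes of G1 and Start 2 rose and 2 fell in wild type, and 6 rose and 2 fell in Δisw2. No B-type cyclin of the mitosis list was called in Δxbp1 (values from CLB6 at -0.82 to CLB4 at 0.50). Of 17 licensing genes 2 rose, DPB11 (1.12) and ORC6 (0.73), and 0 fell (0 at an unadjusted p and 0 with edgeR's quasi-likelihood test).

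Of 18 genes that synthesise DNA or act at the fork 3 rose and 4 fell. The ribonucleotide reductase subunits RNR2 (10965 and 13401 to 2917 and 3133) and RNR4 (10635 and 11908 to 4214 and 3811) fell. RFC1, the large subunit of the clamp loader, rose by 1.47 and RAD27, a flap endonuclease, by 1.26. Of 10 histone genes 5 fell and 0 rose (0 at an unadjusted p and 0 with edgeR's quasi-likelihood test), HTB2 by 1.85 and the variant gene HTZ1 by 1.09. Of 23 early and middle meiotic genes 11 rose and 2 fell (median 0.69). IME1, the master inducer of meiosis, went from 3193 and 1101 to 9157 and 9233, and RED1, of the chromosome axis, from 181 and 290 to 1887 and 1856. NDT80, the middle gene activator, fell by 0.97. SMK1, a meiotic kinase, averaged 24.0 normalized counts, and its call (-1.93) was lost with edgeR (adjusted p = 0.0678), DESeq2 (adjusted p = 0.109) and total read scaling (adjusted p = 0.0821, limma). With stationary phase A or B left out 7 genes of the list rose, and with total read scaling 0 fell. In wild type 10 of the 23 rose and 0 fell (median 0.92). The summed level of 10 markers of sporulating cells was 1989 and 1919 normalized counts at diauxic shift and 2729 and 2917 at stationary phase, and its part in these changes was not tested.

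Transporters and the cell surface gave these counts. Of 18 glucose transporter and sensor genes tested 5 rose and 3 fell. HXT2 went from 136 and 150 to 977 and 1057 and HXT3 from 261 and 342 to 1462 and 1546, while HXT1 rose by 1.31. HXT13 (2.99) and HXT15 (3.27) are nearly the same as other family members over 45.1% and 95.8% of their 37-base stretches. HXT15 averaged 17.4 normalized counts and stood at 1.74 and 3.09 at diauxic shift, near the floor. GAL2, the galactose permease, fell by 1.80. Of 19 amino acid permease genes 8 fell and 0 rose (10 and 0 at an unadjusted p; 8 and 0 with edgeR's quasi-likelihood test), with a median of -0.63, led by GNP1 (-1.33), AGP1 (-1.11) and TAT2 (-1.04), whose wild type changes were -3.12, -1.22 and -2.08. With stationary phase A or B left out 2 permease genes fell, without diauxic shift B 7 fell and 2 rose with a median of -0.22, and with total read scaling 4 fell and 2 rose. Of 22 cell wall and septum genes 13 fell and 0 rose (14 and 1 at an unadjusted p; 8 and 0 without stationary phase B), with medians of -0.98 in Δxbp1 and -1.06 in wild type.

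Of 26 tested genes for corepressors, repressors and their partners, which include the Rpd3L complex that Xbp1 recruits and others such as Cyc8 and Isw2, 9 rose and 2 fell (median 0.32). Without stationary phase B 3 rose and 0 fell, and with total read scaling 14 rose and 0 fell. CTI6 (0.92), DEP1 (0.90), SDS3 (0.84), SIN3 (0.72) and UME6 (0.68) belong to or recruit Rpd3L, ISW2 (0.91) and ITC1 (0.89) form a remodeller, CYC8 (0.77) is the partner of Tup1, and MIG1 (0.90) is a glucose repressor. NRG2 (-0.80) and DLS1 (-0.65) fell. RPD3 itself changed by 0.26 and was not called. Of 22 core autophagy genes 7 rose and 2 fell (median 0.32; 4 and 3 rose without stationary phase A and B), with VPS30, a subunit of the lipid kinase complexes of autophagy and vacuolar sorting, going from 450 and 584 to 1948 and 2264. Of 33 proteasome genes 4 rose and 3 fell (median 0.22), and with total read scaling 13 rose and 2 fell. The 7 genes of the SNZ and SNO list had a median of -0.19, and 0.10 with total read scaling. SNZ1, of vitamin B6 synthesis in starved cells, rose by 1.51 and the near-identical SNZ2 (-1.0) and SNZ3 (-0.71) were called lower. The SNZ3 call was lost with edgeR (adjusted p = 0.056), DESeq2 (adjusted p = 0.057) and total read scaling (adjusted p = 0.222), and the SNZ2 call with total read scaling (adjusted p = 0.0637, limma).

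The change from diauxic shift to stationary phase was then set against the change in wild type, gene by gene, in a single limma fit of the 8 libraries with an interaction term; normalized counts from here on are on the common scale of those 8 libraries. Of 6347 genes tested, 15 changed more positively in Δxbp1 (0.236%) and 17 more negatively (0.268%). At an unadjusted p under 0.05 these were 413 and 488. The number of calls depended on which libraries were included: without wild type diauxic shift B there were 433 calls, without wild type diauxic shift A 58, without Δxbp1 diauxic shift B 13 and without Δxbp1 diauxic shift A 5. Without wild type stationary phase A there were 2, and without any 1 of wild type stationary phase B, Δxbp1 stationary phase A and Δxbp1 stationary phase B there was 1. BOP2 was called under every alternative run, and the other 19 genes described next lost their call under at least 1 of them.

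BOP2, a gene of unknown function, stood at 4437 and 4493 normalized counts at diauxic shift and 8529 and 7520 at stationary phase in Δxbp1. In wild type it went from 6730 and 5120 to 1112 and 1314. The level went up in Δxbp1 and down in wild type, with a difference of 3.12 ± 0.27 (SE) between the log2 changes (adjusted p = 0.00179, limma). The lowest change between Δxbp1 libraries, 0.74, was above the highest in wild type, -1.96, a separation that the rule for naming these genes required. Of all 6347 genes tested, 990 were separated in this direction and 911 in the other. PHO89, a sodium-coupled phosphate transporter, was at 17042 and 7182, then 16491 and 15883 in Δxbp1, and at 16950 and 23094, then 2940 and 3064 in wild type. Its difference was 3.27, and the Δxbp1 diauxic shift libraries differed more than 2-fold from each other.

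CIT2, the citrate synthase of the glyoxylate cycle, was at 44047 and 59589, then 41391 and 39407 in Δxbp1, and at 49545 and 59527, then 8174 and 8819 in wild type. The strains overlapped at diauxic shift and parted at stationary phase. FCY2, a cytosine and purine permease, was at 4300 and 5252, then 4401 and 4863 in Δxbp1, and at 3835 and 3252, then 1076 and 846 in wild type, so that Δxbp1 was above wild type at both phases. DIP5, a permease for glutamate and aspartate, was lower at stationary phase in both strains, going from 5411 and 6577 to 3477 and 3297 in Δxbp1 and from 10071 and 7566 to 885 and 1436 in wild type. The differences were 2.33 for CIT2, 1.85 for FCY2 and 2.14 for DIP5.

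FET3 and SIT1, described with iron uptake, were also in this group. FET3 was at 316 and 564, then 3332 and 3188 in Δxbp1, and at 276 and 335, then 497 and 487 in wild type. The changes were 2.95 and 0.69 on the log2 scale, with a difference of 2.25 ± 0.36 (SE; adjusted p = 0.0291, limma). SIT1 was at 729 and 952, then 2806 and 2637 in Δxbp1, and at 514 and 791, then 405 and 381 in wild type (difference 2.40). Of the other genes, ARO10, a decarboxylase that turns amino acids into fusel alcohols, rose by 1.14 in Δxbp1 and changed by -0.84 in wild type (difference 1.98). GPP1, glycerol phosphatase (1.30 and -0.76), and EUG1, a protein disulphide isomerase of the endoplasmic reticulum (1.58 and -0.53), also rose in Δxbp1 only, with differences of 2.06 and 2.11. GPP1 was at 647 and 844, then 1981 and 1680 in Δxbp1, and at 1910 and 2317, then 1506 and 1029 in wild type. For ARO10, GPP1 and EUG1 both Δxbp1 libraries were below both wild type libraries at diauxic shift and above them at stationary phase.

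**Figure D5:**
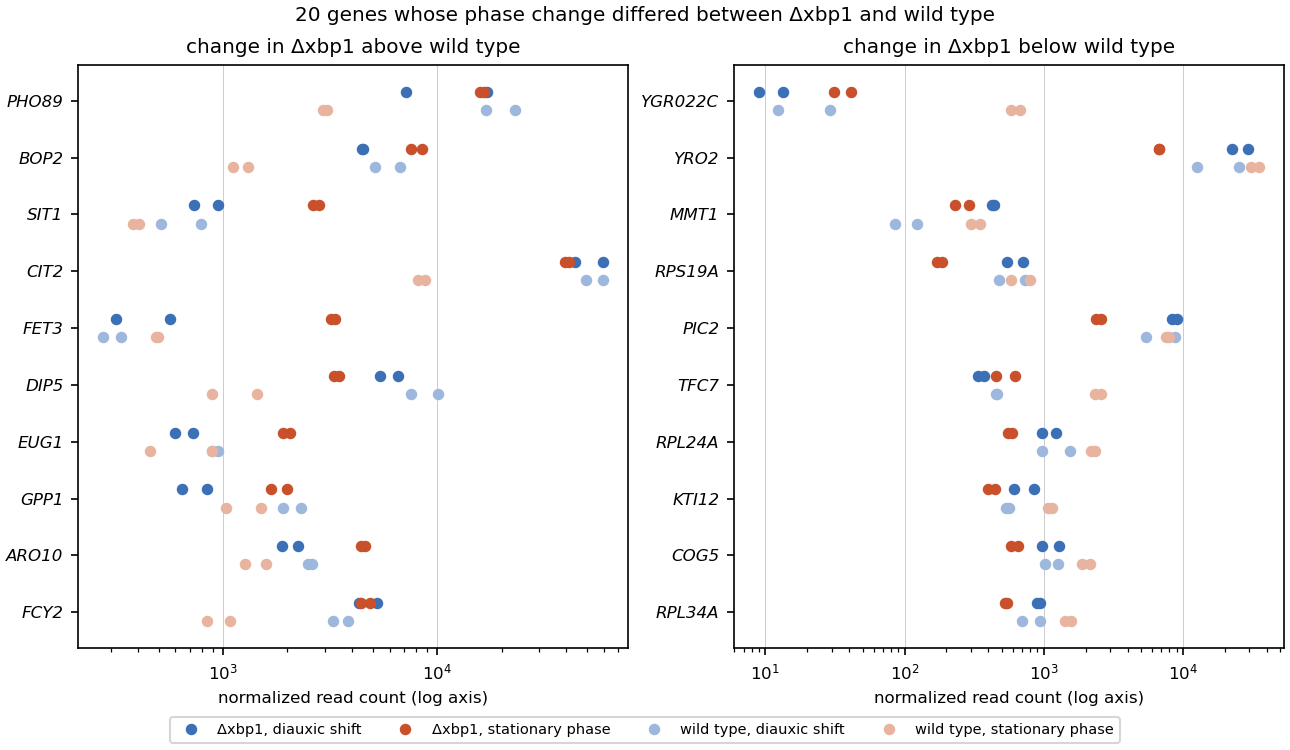
Normalized read counts (log axis, common scale of 8 libraries) of the 10 genes whose phase change in Δxbp1 lay furthest above that in wild type and the 10 furthest below, 2 points per group. For BOP2 the Δxbp1 stationary phase points (8529 and 7520) lie right of all others and the wild type stationary phase points (1112 and 1314) left of them.

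Among the negative differences, YRO2, a plasma membrane protein related to Hsp30, was at 22633 and 29489, then 6744 and 6766 in Δxbp1, and at 12640 and 25300, then 35050 and 30909 in wild type. The changes were -1.94 and 0.88 on the log2 scale, a difference of -2.82 ± 0.44 (SE; adjusted p = 0.0291, limma). MMT1, a mitochondrial iron transporter, was at 428 and 436, then 289 and 229 in Δxbp1, and at 85.1 and 123, then 302 and 346 in wild type (difference -2.40). Here the strains differed at diauxic shift, where both Δxbp1 libraries were above both wild type libraries. PIC2, a mitochondrial carrier of phosphate and copper, was at 8371 and 9057, then 2389 and 2569 in Δxbp1, and at 5408 and 8732, then 7919 and 7598 in wild type (difference -1.99).

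The ribosomal protein genes called were RPS19A (-2.0), RPL24A (-1.81), RPL34A (-1.66) and RPS10A (-1.54). RPL24A was at 967 and 1218, then 588 and 551 in Δxbp1, and at 968 and 1534, then 2318 and 2170 in wild type, so it went down in the first and up in the second. TFC7, a subunit of the RNA polymerase III factor TFIIIC, was at 370 and 338, then 451 and 624 in Δxbp1, and at 465 and 451, then 2345 and 2564 in wild type (difference -1.83). KTI12 (-1.79), which works with the tRNA-modifying Elongator complex, and COG5 (-1.68), a subunit of the COG tethering complex of the Golgi, were lower at stationary phase in Δxbp1 and higher in wild type. YGR022C, not in the RefSeq annotation, was at 8.97 and 13.5, then 41.3 and 31.2 in Δxbp1, and at 12.3 and 29.2, then 581 and 676 in wild type (difference -3.35).

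The change was set against that in Δisw2 in the same way, in a fit that used the same 4 Δxbp1 libraries, so that the comparisons are not independent of each other. Of 6257 genes, 6 changed more positively in Δxbp1 (0.0959%) and 16 more negatively (0.256%). Of the 20 genes described against wild type 6 passed the test against Δisw2 as well. Their differences, wild type first, were BOP2 3.12 and 2.07, FET3 2.25 and 2.53, ARO10 1.98 and 1.83, MMT1 -2.40 and -2.35, RPS19A -2.0 and -1.84, and RPL24A -1.81 and -1.73. The other 14 did not pass. Among the positive ones these were SIT1 2.40 and 2.19 (adjusted p = 0.0519), PHO89 3.27 and 1.95, GPP1 2.06 and 1.44, EUG1 2.11 and 1.32, CIT2 2.33 and 1.21, DIP5 2.14 and 1.1, and FCY2 1.85 and 1.02 (adjusted p = 0.295, limma). Among the negative ones they were YGR022C -3.35 and -2.70, YRO2 -2.82 and -2.15, KTI12 -1.79 and -1.59, PIC2 -1.99 and -1.34, TFC7 -1.83 and -1.19, RPL34A -1.66 and -1.17, and COG5 -1.68 and -1.13.

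Because Xbp1 binds CTCGA, the promoter windows of these genes were searched on both strands for CTCGA and for the palindrome CTCGAG, which contains it. Windows ran from 250 bases before to 50 bases after the first base of the annotated gene (RefSeq, R64), 300 bases in all. CTCGAG was in 273 of 5782 windows of tested genes (4.72%), in 3 of the 15 genes with a positive difference and in 2 of 16 with a negative one. CTCGA was in 25.7% of all windows, in 8 of the 15 and in 3 of the 16. Among all genes called between the phases in Δxbp1, CTCGAG was in 42 of 1032 windows of higher genes and 71 of 1233 of lower genes. The windows of all 5 called genes that hold CTCGAG are shown so that its place can be compared; DIP5 was chosen by rule and the others after their values were seen. Capitals mark CTCGAG.
DIP5: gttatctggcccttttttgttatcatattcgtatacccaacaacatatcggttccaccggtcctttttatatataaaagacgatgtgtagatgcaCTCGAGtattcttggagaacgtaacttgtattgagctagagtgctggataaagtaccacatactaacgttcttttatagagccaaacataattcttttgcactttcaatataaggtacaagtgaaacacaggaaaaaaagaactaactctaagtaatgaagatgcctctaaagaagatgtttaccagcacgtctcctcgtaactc
MPC2: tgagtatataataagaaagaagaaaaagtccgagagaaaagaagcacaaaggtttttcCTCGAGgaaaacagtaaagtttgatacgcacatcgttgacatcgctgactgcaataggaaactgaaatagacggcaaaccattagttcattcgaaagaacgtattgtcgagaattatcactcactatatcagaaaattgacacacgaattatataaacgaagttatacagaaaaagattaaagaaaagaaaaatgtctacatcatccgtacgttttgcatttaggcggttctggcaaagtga
SWI6: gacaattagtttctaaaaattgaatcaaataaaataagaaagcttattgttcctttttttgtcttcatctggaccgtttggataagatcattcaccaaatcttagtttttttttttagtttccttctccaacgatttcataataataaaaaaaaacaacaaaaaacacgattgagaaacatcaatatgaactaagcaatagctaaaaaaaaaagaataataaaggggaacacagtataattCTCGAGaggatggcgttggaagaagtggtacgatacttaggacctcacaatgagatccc
ECM25: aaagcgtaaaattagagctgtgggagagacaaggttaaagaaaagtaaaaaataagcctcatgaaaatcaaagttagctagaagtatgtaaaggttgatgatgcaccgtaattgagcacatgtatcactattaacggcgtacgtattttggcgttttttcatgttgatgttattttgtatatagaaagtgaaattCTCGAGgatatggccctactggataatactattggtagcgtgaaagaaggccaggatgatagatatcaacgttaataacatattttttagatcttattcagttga
MMT1: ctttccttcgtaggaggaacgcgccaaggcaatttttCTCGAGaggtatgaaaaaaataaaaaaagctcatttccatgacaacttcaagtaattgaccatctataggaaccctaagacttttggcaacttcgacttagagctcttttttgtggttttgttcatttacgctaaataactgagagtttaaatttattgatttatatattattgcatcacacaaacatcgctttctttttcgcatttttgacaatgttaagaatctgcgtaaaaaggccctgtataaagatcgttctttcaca
The windows lie at chrXVI:40793-41092 (DIP5), chrVIII:422822-423121 (MPC2), chrXII:517690-517989 (SWI6), chrX:54129-54428 (ECM25) and chrXIII:616316-616615 (MMT1), all on the plus strand. The first base of CTCGAG was 155 bases before the start in DIP5, 192 in MPC2, 9 in SWI6, 55 in ECM25 and 213 in MMT1. The first 3 changed more positively in Δxbp1 than in wild type, by 2.14, 1.81 and 1.42 on the log2 scale, and the last 2 more negatively, by -1.53 and -2.40. MPC2, a subunit of the mitochondrial pyruvate carrier, was at 6972 and 7659, then 4170 and 5435 in Δxbp1, and at 3520 and 3582, then 604 and 724 in wild type, higher in Δxbp1 at both phases. SWI6, the shared subunit of the G1 transcription factors, was at 1022 and 1015, then 2082 and 2143 in Δxbp1, and at 771 and 823, then 608 and 622 in wild type. PHO89, BOP2, SIT1, EUG1, GPP1, ARO10 and GLY1 held neither motif in their windows.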

How the data were processed

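Poly-A RNA libraries were sequenced as read pairs; per the study's methods and the labels, reads were aligned with Bowtie2 to sacCer3 and normalized with DESeq2. The counting program and its use of strand are not given in the sources used here. The deposited signal values were the authors' read counts per gene divided by a size factor for each library. Each library's factor was recovered from the steps between low values, and 100% of values came back as whole reads (tolerance 0.1). There were 6845 genes listed for diauxic shift and 6794 for stationary phase, and the 6760 in both were used. Recovered reads were scaled again by median-of-ratios factors over the libraries in each fit, filtered with filterByExpr of edgeR 4.0.16, and tested as log2(value + 1) with limma-trend (limma 3.58.1, R 4.3.3), so fold changes of low genes are understated. A call needed a Benjamini-Hochberg adjusted p under 0.05 over all genes tested and a change of at least 1.5-fold. Alternatives were edgeR's quasi-likelihood test and DESeq2 1.42.0 on the recovered reads, other scalings, pseudocounts, filters and thresholds, thinning to equal depth, a replicate block, and leaving out each library. Scripts were tested on simulated data.

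Genes were named by size of change. Those eligible were called, averaged 50 normalized counts or more and did not overlap between phases. Named were the 12 top rises, the 12 top falls, the 10 largest differences from wild type each way by the same rule, up to 4 called members of each list with the largest change, and members whose role the text needed. The gene lists and these choices were made with earlier results of these data known. Libraries were grouped by the strain and phase of their table and treated as replicates, and p-values measure the spread between these samples. Stationary phase B of each group carries no replicate number of the labels. Columns of the authors' own fold changes and p-values, and the Δtup1 and Δsds3 libraries, were not used. RPP1 and MRP8, whose symbols matched the patterns for ribosomal proteins but which RefSeq does not annotate as such, were taken out of those lists after their values were seen.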

Additional observations from a re-analysis of the deposited data

Results flagged for a closer look

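A gene is given here where its change from diauxic shift to stationary phase differed between Δxbp1 and wild type by limma's interaction term, at a Benjamini-Hochberg adjusted p under 0.05 and a difference of at least 1.5-fold. Values are differences of log2 changes, Δxbp1 minus wild type, with 2 libraries per group. The positive differences were PHO89 (3.27), BOP2 (3.12), SIT1 (2.40), CIT2 (2.33), FET3 (2.25), DIP5 (2.14), EUG1 (2.11), GPP1 (2.06), ARO10 (1.98), FCY2 (1.85), MPC2 (1.81), GLY1 (1.57), MRX16 (1.56), SWI6 (1.42) and AGP2 (1.33).

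The negative differences were YGR022C (-3.35), YRO2 (-2.82), MMT1 (-2.40), RPS19A (-2.0), PIC2 (-1.99), TFC7 (-1.83), RPL24A (-1.81), KTI12 (-1.79), COG5 (-1.68), RPL34A (-1.66), NAT1 (-1.65), YEH2 (-1.63), VPS75 (-1.59), RPS10A (-1.54), ECM25 (-1.53), ADK1 (-1.46) and YDL129W (-1.33). Between strains and phases the libraries also differed in depth, the shallowest being stationary phase B of Δxbp1 (2543155 reads on genes) and of wild type (4424289). With all libraries thinned to equal depth 40 differences were called, 26 of them shared with the 32 above. Among those that lost their call were YGR022C (-3.13 after thinning), RPS19A (-1.88) and TFC7 (-1.47). Beyond this thinning, the part of depth in these differences was not tested.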

How the results depend on the processing

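The phase change in Δxbp1 gave 1085 higher and 1270 lower genes. Scaling by total reads gave 1826 and 680, and a test against a 1.5-fold change gave 294 and 337. Leaving out 1 library at a time gave 566 to 1164 higher and 726 to 1372 lower genes, lowest without stationary phase B. The other alternatives stayed within 1.5 times of these counts, and no gene called in both changed direction. The difference from wild type was far less stable. Its 15 positive and 17 negative genes became 104 and 171 with DESeq2, 413 and 488 at an unadjusted p, 33 positive with total read scaling, and 1 and 0 in a test against 1.5-fold. Leaving out 1 library at a time gave 1 to 139 positive and 0 to 294 negative genes, highest without wild type diauxic shift B. For MMT1 and YGR022C DESeq2 gave no adjusted p.

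The letters A and B need not pair samples across phases, since stationary phase B carries no replicate number of the labels. Over genes, the A minus B differences at diauxic shift and stationary phase correlated at -0.18 in Δxbp1 and -0.16 in wild type. Because the letters were assigned here, this cannot show whether cultures were paired. With a replicate block the phase change gave 1043 higher and 1213 lower genes, and the difference 19 positive and 13 negative, 24 of them shared with the fit without the block. The depth of stationary phase B limits what could be detected among low genes.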
